A study of Mus musculus with 17 samples.

Results

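Mouse macrophages were read for 10 genes by which antigen-presenting cells show peptides to CD4+ T cells and costimulate them: H2-Aa, H2-Ab1, H2-Eb1, Cd74, H2-DMa, Ciita, Cd40, Cd80, Cd83 and Cd86. They were chosen by name, as the probe sets whose single platform gene symbol is one of these genes. This gave 14 probe sets of the 12488 on the array, and all 14 were bright enough to be tested. H2-DMa, Cd80, Cd83 and Cd86 each had 2 probe sets, of which the brighter on average is termed the first, and the other 6 genes had 1 each.

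The series compared macrophages that carried or lacked SOCS3, the feedback inhibitor of the IL-6 receptor subunit gp130. The blood system of irradiated mice was rebuilt from the fetal liver of SOCS3+/+ (WT) or SOCS3-/- (KO) embryos, and macrophages were grown from donor-derived bone marrow cells. The labels name no Cre and do not say what share of host cells remained. Macrophages were left unstimulated (2 arrays of WT and 3 of KO) or exposed for 100 or 400 min to 10 ng/ml of IL-6 (3 arrays for each genotype and time). Replicates are numbered 1 to 3 with no word on whether separate cultures or mice were used, so p-values cover the spread between these 17 arrays, possibly a technical one. No other treatment is given in the labels, so these are macrophages without added interferon gamma or microbial stimulus as far as the labels say.

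MHC class II molecules are pairs of an alpha and a beta chain. H2-Aa and H2-Ab1 encode the chains of I-A, and H2-Eb1 the beta chain of I-E. The invariant chain Cd74 fills the groove on the way to the endosome, and H2-DM, of which H2-DMa encodes the alpha chain, helps exchange its remnant for antigenic peptide. Ciita is the coactivator that drives transcription of these genes, acting through factors bound to a shared arrangement of promoter boxes. Cd80 and Cd86 are the ligands of CD28 and CTLA-4 on T cells, Cd40 is the receptor for CD40 ligand on helper T cells, and Cd83 is a surface marker of activated antigen-presenting cells. In macrophages, class II is best known to be raised by interferon gamma, and costimulatory molecules by microbial products.

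Some arrays stood apart. Of the 5 replicate 3 arrays, 4 scored 26.61 to 58.08 on the leading principal component (12.7% of the variance), while the 12 arrays of replicates 1 and 2 reached no higher than 2.27. The array labelled KO 400 min replicate 3 scored 0.89, but it went against its label: its Socs3 level was 903 on the brighter Socs3 probe set, against 48.6 and 78.5 on the other KO arrays at 400 min. Levels here are normalized intensities, that is, the deposited values after quantile normalization. Macrophage markers such as Lyz2, between 22014 and 32381, and Csf1r, between 13433 and 32965, were bright on all arrays, while the scavenger receptor Marco (10.8 to 103) and the receptor kinase Mertk (25.3 to 243) of the same list were dim. Of the B cell markers, the immunoglobulin heavy chain Ighm read 615 to 5859.9, and all others, Cd79a and Ms4a1 among them, were at or below 446. Of the dendritic cell markers, Fscn1 read 588 to 2080.3 and Flt3 409 to 885, and Itgax was dim, at 99.6 to 345. In such bulk samples, fewer cells of a type and less RNA per cell cannot be told apart.

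Letters shared by the promoters of H2-Aa and H2-Eb1, the I-A and I-E chain genes with a matched promoter, are shown first. The levels of H2-Aa and H2-Eb1 had a Pearson correlation of 0.89 over the 17 arrays and of -0.17 over the 12 arrays of replicates 1 and 2. The likeness of this pair thus rested on the replicate 3 arrays. The lowest 3 arrays of both genes are among them, so leaving them out narrows the range and tends to lower the correlation. Over the same 12 arrays H2-Aa was at 0.68 with H2-Ab1 and 0.6 with Cd74, and H2-Ab1 at 0.71 with Cd74. H2-Eb1 was at -0.51 with H2-Ab1 and -0.21 with Cd74. H2-Ab1, H2-Aa and H2-Eb1 lie side by side in the RefSeq gene table of assembly GRCm38.p6, with 0 genes between neighbours, and 7 genes lie between H2-DMa and H2-Ab1. Of the members, RefSeq promoters (250 bases before to 50 after a start) were matched for H2-Aa, H2-Eb1, Cd80 and H2-DMa. In these 2 stretches, read 5′ to 3′ on the gene's own strand, the capitals mark the letters GCAACT and, further on, CTGATTGG.
H2-Aa promoter, chr17:34287852-34287919, minus strand, GRCm38.p6: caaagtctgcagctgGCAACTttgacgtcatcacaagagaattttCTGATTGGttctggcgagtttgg
H2-Eb1 promoter, chr17:34305761-34305827, plus strand, GRCm38.p6: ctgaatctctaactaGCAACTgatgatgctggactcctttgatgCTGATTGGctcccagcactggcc

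The gap between the capitals is 24 bases in H2-Aa and 23 bases in H2-Eb1, and the second motif begins 51 and 62 bases before the start. Both motifs were chosen by reading these promoters, so their presence here is no finding. CTGATTGG holds the reverse complement of CCAAT, so a match to the one is also a match to the other. Searched on both strands, GCAACT was in 10.9% of the 32851 promoters, CTGATTGG in 4.1% and CCAAT in 37.4%. GCAACT followed on the same strand by CTGATTGG within 40 bases was in 10 promoters, or 0.0304%. The promoters of Cd80 and H2-DMa did not hold the pair, which says only that these letters are not in those windows.

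No member passed the test in any of 11 comparisons. In limma over all 9871 tested probe sets, with Benjamini-Hochberg adjustment and a threshold of 0.05, 0 of 14 member probe sets were called after 100 min of IL-6 in WT cells (background 0.0101% of all tested probe sets called) and 0 after 400 min (background 0.0101%). In KO cells 0 were called at 100 min (background 0.577%) and 0 at 400 min (background 1.82%). Between 100 and 400 min 0 were called in WT or in KO (background 0% in each). In KO against WT cells, 0 were called unstimulated (background 0%), 0 at 100 min (background 0.0405%) and 0 at 400 min (background 0.365%). At an unadjusted p under 0.05, counts in the order of these comparisons were 5, 1, 1 and 1 for the responses from 0 min, 3 (WT) and 1 (KO) between the times, and 2, 0 and 1 for KO against WT. The corresponding shares of all tested probe sets were 6.12%, 6.26%, 6.17% and 12.2%, then 6.3% and 9.03%, then 5.99%, 4.89% and 8.71%. The member probe sets past an unadjusted p were those of Cd83, Cd86 and Ciita. Of these, the second Cd86 probe set passed the brightness filter only through 100-min arrays. Its part in the counts involving 100 min is thus no support.

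**Figure D1:**
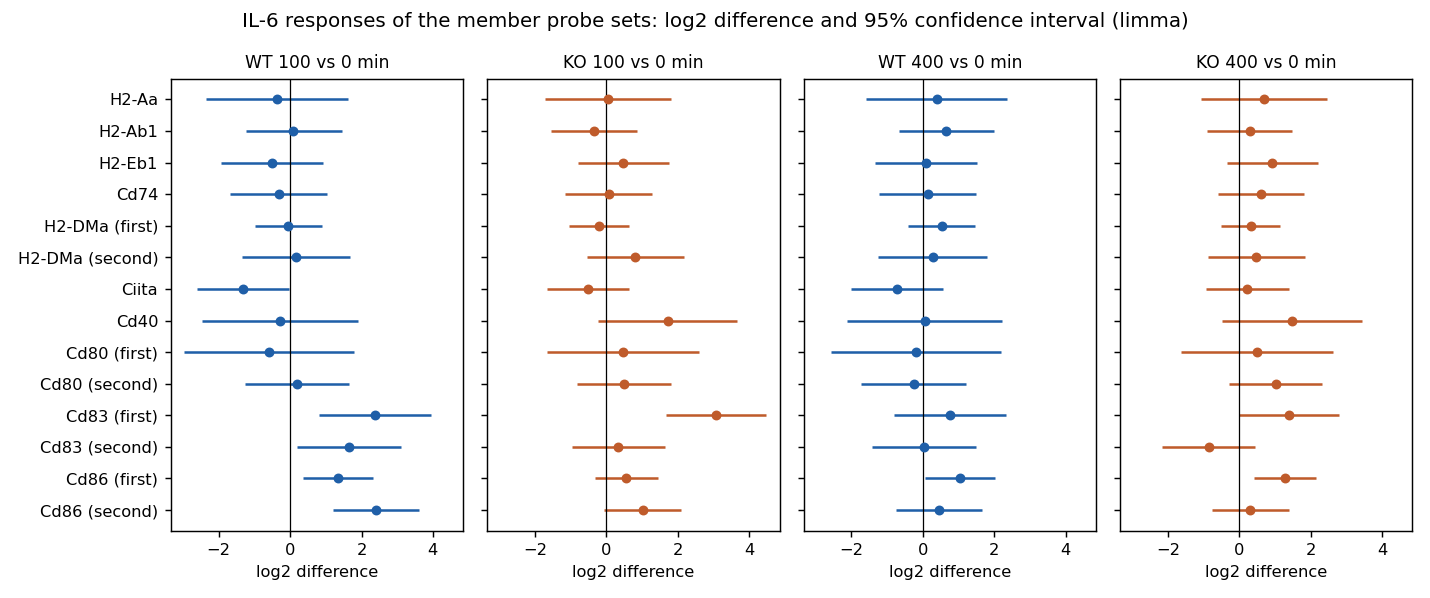
Log2 difference from unstimulated cells (points) with its 95% confidence interval (lines) from limma, for the 14 member probe sets, in WT (blue) and KO (orange) cells at 100 and 400 min of IL-6. The first Cd83 probe set lies farthest to the right in KO cells at 100 min, at 3.08, and the intervals of H2-Aa, H2-Ab1, H2-Eb1 and Cd74 span 0 in all 4 panels.

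For the class II chain genes, the lowest arrays were those of replicate 3 at 0 or 100 min, and not those of replicate 3 at 400 min. H2-Aa, the I-A alpha chain, read 1164 and 1267 on the arrays of unstimulated WT cells. For replicates 1, 2 and 3, in this order here and below, it read 1196, 1125 and 619.6 at 100 min and 1456, 1773 and 1571 at 400 min. In KO cells H2-Aa read 1579.7, 1337 and 204 unstimulated, 1705, 1596 and 174 at 100 min, and 1557, 1322 and 899 at 400 min. The replicate 3 array was thus the lowest of its group in all KO groups and in WT cells at 100 min, and not in WT cells at 400 min, where the 3 arrays lay above both unstimulated ones.

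H2-Ab1, the I-A beta chain, read 501 and 377 in unstimulated WT cells, 544, 492 and 374 at 100 min, and 505, 709 and 908 at 400 min. In KO cells H2-Ab1 read 679.7, 687 and 279.5 unstimulated, 885, 546 and 131 at 100 min, and 634, 575 and 651 at 400 min. At 400 min in WT cells, all 3 arrays were above both unstimulated ones, with a log2 difference of 0.66 (SE 0.62, adjusted p = 0.96 in limma). H2-Eb1, the I-E beta chain, read 947 and 1059.9 in unstimulated WT cells, 1092, 944 and 337 at 100 min, and 1063, 955 and 1211 at 400 min. In KO cells H2-Eb1 read 815, 853 and 196 unstimulated, 845, 1197 and 355 at 100 min, and 1061, 1239 and 712 at 400 min. All 3 unstimulated KO arrays were below both unstimulated WT arrays for H2-Eb1, by a log2 difference of -0.96 (SE 0.66, adjusted p = 0.898).

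Cd74, the invariant chain, read 4992 and 4841 in unstimulated WT cells, 5072, 4865 and 2452 at 100 min, and 5747, 5546 and 4939.8 at 400 min. In KO cells Cd74 read 5424, 6539 and 1429 unstimulated, 6272, 5567 and 1644 at 100 min, and 6605, 5478 and 4966 at 400 min. The low arrays were again those of replicate 3, in WT cells at 100 min and in KO cells at 0 and 100 min. The differences from unstimulated cells for Cd74 were between -0.32 and 0.61 on the log2 scale, each with an SE of 0.56 or 0.63.

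**Figure D2:**
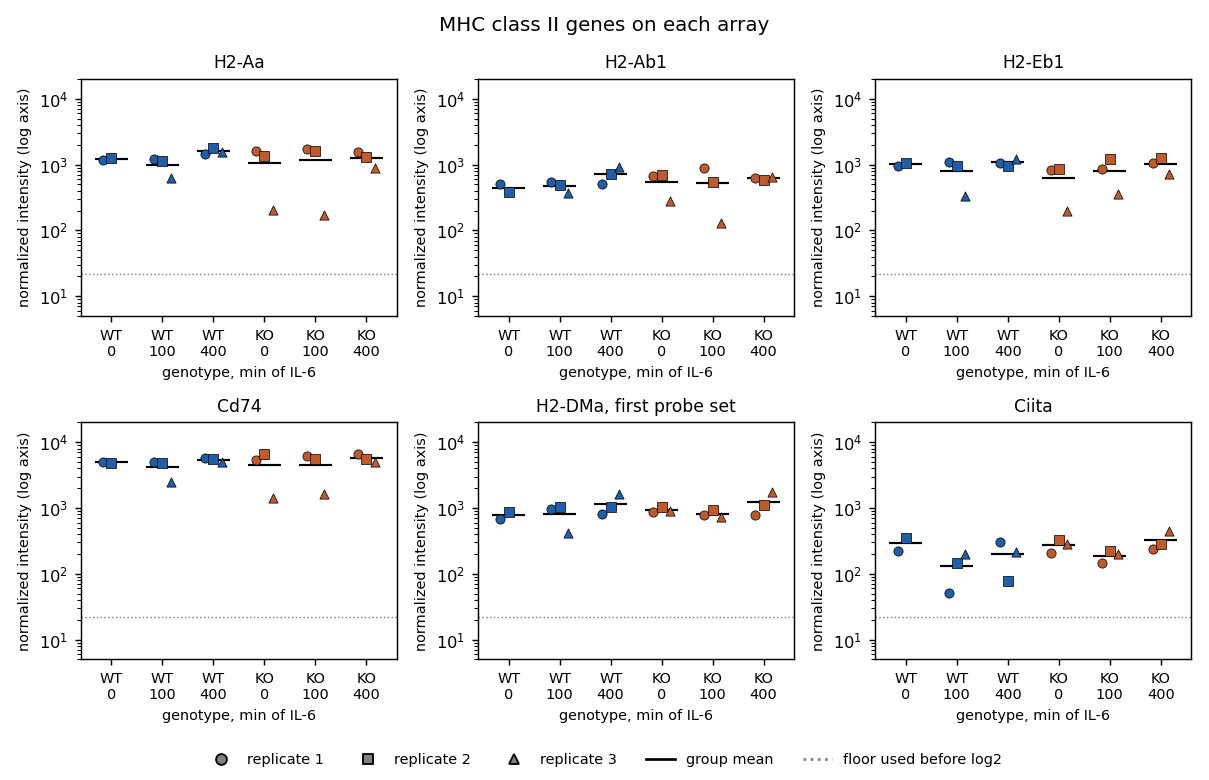
Normalized intensity (log axis) of H2-Aa, H2-Ab1, H2-Eb1, Cd74, the first H2-DMa probe set and Ciita on each of the 17 arrays, by genotype and min of IL-6; circles, squares and triangles are replicates 1, 2 and 3, black bars are group means and the dotted line is the floor of 22.01. The triangles of WT at 100 min and of KO at 0 and 100 min lie below all other arrays for H2-Aa, H2-Ab1, H2-Eb1 and Cd74.

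For H2-Aa, H2-Ab1, H2-Eb1 and Cd74 alike, the lowest 3 of the 17 arrays were the replicate 3 arrays of WT at 100 min, KO unstimulated and KO at 100 min. In unstimulated KO cells the replicate 3 array held 14.0% of the mean of replicates 1 and 2 for H2-Aa, 40.9% for H2-Ab1, 23.5% for H2-Eb1 and 23.9% for Cd74. In KO cells at 100 min these shares were 10.5% for H2-Aa, 18.3% for H2-Ab1, 34.7% for H2-Eb1 and 27.8% for Cd74. In WT cells at 100 min they were 53.4%, 72.2%, 33.1% and 49.4% in the same order. At 400 min the replicate 3 arrays were closer to the others, with 97.3%, 150%, 120% and 87.5% in WT and 62.4%, 108%, 61.9% and 82.2% on the array labelled KO 400 min replicate 3. Within replicate 3, the KO array at 400 min was above the unstimulated one by log2 differences of 2.14, 1.22, 1.86 and 1.8. The WT array at 400 min was above that at 100 min by 1.34, 1.28, 1.84 and 1.01. In replicates 1 and 2 the same differences ran from -0.26 to 0.54 in KO and from -0.11 to 0.66 in WT. Each is a difference between single arrays. The low replicate 3 levels were thus those of 0 and 100 min.

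The deviation of replicate 3 was tested as a term in limma over all probe sets, beside a mean for each group. Replicate 3 was singled out by its deviation on these same arrays, so the p-values are no independent support for it. The term is also a common shift over all groups. The class II levels of replicate 3, however, were low at the earlier times and closer to the other arrays at the last time. In this test 3 of the 14 member probe sets were called lower on the replicate 3 arrays and 0 higher, where 3.58% of all tested probe sets were called lower and 7.26% in either direction. H2-Aa was lower by a log2 difference of -1.54 (SE 0.38, adjusted p = 0.0308), H2-Eb1 by -1.12 (SE 0.26, adjusted p = 0.0258) and Cd74 by -1.08 (SE 0.24, adjusted p = 0.0229). H2-Ab1, at -0.69 (SE 0.33, adjusted p = 0.238), and Cd40, at -1.43 (SE 0.49, adjusted p = 0.0973), did not pass. The first H2-DMa probe set was at 0.04 (SE 0.27) and Ciita at 0.54 (SE 0.34). The first probe set of Cd86 was at 0.58 (SE 0.23, adjusted p = 0.143). The labels give replicate 3 a number and no other property.

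**Figure D3:**
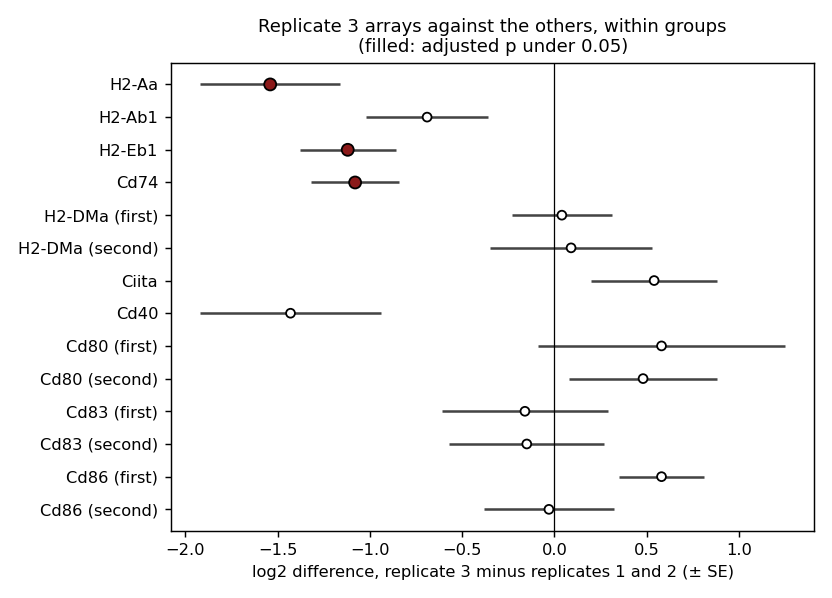
Log2 difference of the replicate 3 arrays from the arrays of replicates 1 and 2 within groups (points, with lines of 1 SE) for the 14 member probe sets, from limma with a mean for each group. The filled points, with an adjusted p under 0.05, are H2-Aa at -1.54, H2-Eb1 at -1.12 and Cd74 at -1.08. Replicate 3 was singled out on these same arrays, so these p-values are no independent support.

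Marker levels of several cell types also differed on the replicate 3 arrays. The summed level of the 14 macrophage markers on the array was 95901 on the replicate 3 array of WT cells at 100 min and 145352 and 152061 on the others. It was 102903 against 124046 and 134839 in unstimulated KO cells, and 100164 against 124663 and 127115 in KO cells at 100 min. In WT cells at 400 min it was 118724 against 156921 and 159252, and in KO cells at that time 110358 against 131573 and 134308, so that replicate 3 was the lowest in all 5 groups that have one. The class II genes did not follow this sum in WT cells at 400 min, where H2-Ab1 and H2-Eb1 were highest on the replicate 3 array. The summed level of 14 B cell markers, of which Ighm was the brightest by its median, was 2314 to 3166 on the replicate 3 arrays, 2405 and 2804 on the other KO arrays at 400 min, and 3457 to 7666 on the remaining arrays. The sum of 11 dendritic cell markers was 2314 to 3732 on the replicate 3 arrays and 2406 to 4446 on the others. The sum of 13 neutrophil and myeloid precursor markers was 1143 to 1497 on the replicate 3 arrays and 1573 to 2406 on the others, without overlap. These markers were dim, the brightest by its median being Camp at 312. The sum of 12 T and NK cell markers was 1419 to 2408 on the replicate 3 arrays and 1097 to 2225 on the others. On the replicate 3 array of WT cells at 100 min it was 2408 against 1448 and 1399. Of these 12 markers 5 were bright enough to be tested, and Il7r was the brightest by its median, at 782. The part of these markers in the class II levels was not tested.

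Leaving out the replicate 3 arrays takes away the lowest 3 arrays of H2-Aa, H2-Ab1, H2-Eb1 and Cd74. A narrower range over the 12 remaining arrays of both genotypes and all times was therefore bound to follow, and it is given as a description. The highest array was 1.58-fold above the lowest for H2-Aa, 2.34-fold for H2-Ab1, 1.52-fold for H2-Eb1 and 1.36-fold for Cd74. Over all 17 arrays these folds were 10.2, 6.93, 6.32 and 4.62. The confidence intervals of the IL-6 response narrowed accordingly. For H2-Aa in KO cells at 100 min the log2 difference was 0.04 (95% interval -1.73 to 1.82) with all arrays and 0.18 (95% interval -0.3 to 0.66) with replicates 1 and 2 alone. At 400 min in KO cells H2-Aa was at -0.02 (95% interval -0.5 to 0.46) in replicates 1 and 2.

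Cd74 was likewise at -0.01 (95% interval -0.48 to 0.46) in KO cells at 100 min and at 0.01 (95% interval -0.45 to 0.48) at 400 min in replicates 1 and 2. In WT cells the largest difference from 0 min among the 4 genes in these replicates was that of H2-Ab1 at 400 min, at 0.46 (95% interval -0.22 to 1.14). In KO cells it was that of H2-Eb1 at 400 min, at 0.46 (95% interval -0.08 to 1, adjusted p = 0.45). For KO against WT, H2-Ab1 was at 0.65 unstimulated (95% interval -0.03 to 1.34, adjusted p = 0.681) and H2-Aa at 0.51 at 100 min (95% interval 0.03 to 0.99, adjusted p = 0.563). None of these 4 genes passed the test in replicates 1 and 2, and their intervals for the responses from 0 min stayed within -0.86 and 1.14.

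H2-DMa, a peptide exchange subunit, did not share the low replicate 3 levels of KO cells. On the first probe set H2-DMa read 676 and 882 in unstimulated WT cells, 975, 1038 and 411 at 100 min, and 802, 1049 and 1648 at 400 min. In KO cells H2-DMa read 860.4, 1044 and 890.4 unstimulated, 773, 930.3 and 735 at 100 min, and 771, 1122 and 1779 at 400 min. The replicate 3 array was the lowest in both groups at 100 min and the highest in both groups at 400 min. The second H2-DMa probe set, whose name marks probes shared by a family of sequences, was dim, at 55.6 to 368.

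Ciita, the class II coactivator, read 224 and 356 in unstimulated WT cells, 50.5, 147 and 199 at 100 min, and 305, 77.0 and 214 at 400 min. In KO cells Ciita read 207, 324 and 280 unstimulated, 145, 225 and 197 at 100 min, and 237, 285 and 444 at 400 min. In WT cells the 3 arrays at 100 min lay below both unstimulated ones, with a log2 difference of -1.31 (SE 0.6, adjusted p = 0.814 in limma). In KO cells at 100 min the difference was -0.52 (SE 0.54, adjusted p = 1) and the groups overlapped, while all 3 arrays at 400 min lay above those at 100 min (0.74, SE 0.54, adjusted p = 0.758). Ciita in KO against WT was at -0.09, 0.71 and 0.86 at 0, 100 and 400 min, with adjusted p values of 0.992, 0.999 and 0.711.

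The costimulatory genes were where single members came nearest to the threshold. Cd83, the activation marker, read 187 and 19.4 on its first probe set in unstimulated WT cells, 313, 453 and 272 at 100 min, and 81.0, 150.3 and 104 at 400 min. In KO cells Cd83 read 150.3, 53.1 and 79.2 unstimulated, 1303, 600.3 and 489 at 100 min, and 174, 201 and 327 at 400 min. In KO cells the 3 groups did not overlap, with 100 min highest and 0 min lowest, and in WT cells the arrays at 100 min were all above those at 0 and 400 min.

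The Cd83 difference in KO cells at 100 min was 3.08 (SE 0.65, 95% interval 1.68 to 4.48, adjusted p = 0.0556), an 8.46-fold higher level. Between arrays of the same number it was 3.12, 3.5 and 2.63, so the value of replicate 3 was near the others. The numbers were not taken to pair the arrays, so these are differences between single arrays and not paired replicates. This Cd83 difference passed the threshold without either array of unstimulated WT cells, which are 0-min arrays of the other genotype and enter only through the shared spread (adjusted p = 0.00845 without replicate 1 or without replicate 2). It also passed with the values as deposited (adjusted p = 0.0431) and with an intensity trend in the variance (adjusted p = 0.0174). With replicates 1 and 2 alone it was 3.31 (SE 0.96, adjusted p = 0.241).

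At 400 min in KO cells Cd83 was at 1.39 (SE 0.65, adjusted p = 0.418) over 0 min and at -1.69 (SE 0.65, adjusted p = 0.45) against 100 min. In WT cells the values were 2.39 at 100 min (SE 0.73, adjusted p = 0.615), 0.75 at 400 min (SE 0.73, adjusted p = 0.965) and -1.64 (SE 0.65, adjusted p = 0.715) between these times. Without replicate 1 of unstimulated WT cells the WT difference at 100 min was 3.94 (adjusted p = 0.0344), and the remaining unstimulated array, at 19.4, lay under the floor of 22.01. All 3 KO arrays were above all 3 WT arrays at 100 min (1.1, SE 0.65, adjusted p = 0.999) and at 400 min (1.06, SE 0.65, adjusted p = 0.706).

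The second Cd83 probe set did not give the same picture. It read 86.7 and 58.0 in unstimulated WT cells, 115, 267 and 350.4 at 100 min, and 67.4, 131 and 43.8 at 400 min. In KO cells this Cd83 probe set read 116, 198 and 242 unstimulated, 386, 116 and 244 at 100 min, and 192, 102 and 47.8 at 400 min. Its difference at 100 min was 1.64 (SE 0.68, adjusted p = 0.783) in WT and 0.33 (SE 0.61, adjusted p = 1) in KO cells, where the groups overlapped. The 2 probe sets of Cd83 thus differ on the KO response at 100 min.

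Cd40, the receptor for CD40 ligand, read 261 and 444 in unstimulated WT cells, 862, 760.3 and 33.4 at 100 min, and 444, 358 and 275 at 400 min. In KO cells Cd40 read 130.2, 171 and 156 unstimulated, 677, 657 and 273 at 100 min, and 549, 474 and 290.1 at 400 min. The unstimulated KO arrays were below every other array except the replicate 3 array of WT cells at 100 min, and did not overlap the KO arrays at either later time. On that WT array Socs3, itself a target of IL-6 signalling, was also low, at 432 against 1809 and 2552 in replicates 2 and 1.

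With all arrays the Cd40 difference at 100 min in KO cells was 1.71 (SE 0.91, adjusted p = 0.884), and at 400 min it was 1.48 (SE 0.91, adjusted p = 0.597). The fit of replicates 1 and 2 alone has 2 arrays a group. It leaves out arrays that deviated in these same data, for Cd40 too, so it gives no independent support. In that fit Cd40 was higher in KO cells at 100 min by 2.16 (SE 0.29, 95% interval 1.48 to 2.84, adjusted p = 0.0129), a 4.47-fold higher level. At 400 min Cd40 was higher by 1.78 (SE 0.29, adjusted p = 0.021), a 3.42-fold higher level. It was the 1 member of 14 called in that fit in each of these comparisons, where 1.19% and 2.8% of all tested probe sets were called. Without the replicate 3 array of WT cells at 100 min, the difference at 100 min was again 1.71, with an adjusted p of 0.0669. In WT cells Cd40 was at -0.29 at 100 min (SE 1.02, adjusted p = 0.978) with all arrays and at 1.25 (SE 0.29, adjusted p = 0.275) in replicates 1 and 2. Leaving out the replicate 3 array of WT cells at 100 min alone also gave 1.25 (adjusted p = 0.82), so that this array set the sign.

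Cd40 in unstimulated KO cells was lower than in WT cells on all arrays, by a log2 difference of -1.17 (SE 1.02, adjusted p = 0.915), or -1.19 (SE 0.29, adjusted p = 0.311) in replicates 1 and 2. After IL-6 the KO and WT levels of Cd40 overlapped at both times. KO minus WT, the response of Cd40 was 1.99 at 100 min (SE 1.36, adjusted p = 1), and 1.43 at 400 min (SE 1.36, adjusted p = 0.95).

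**Figure D4:**
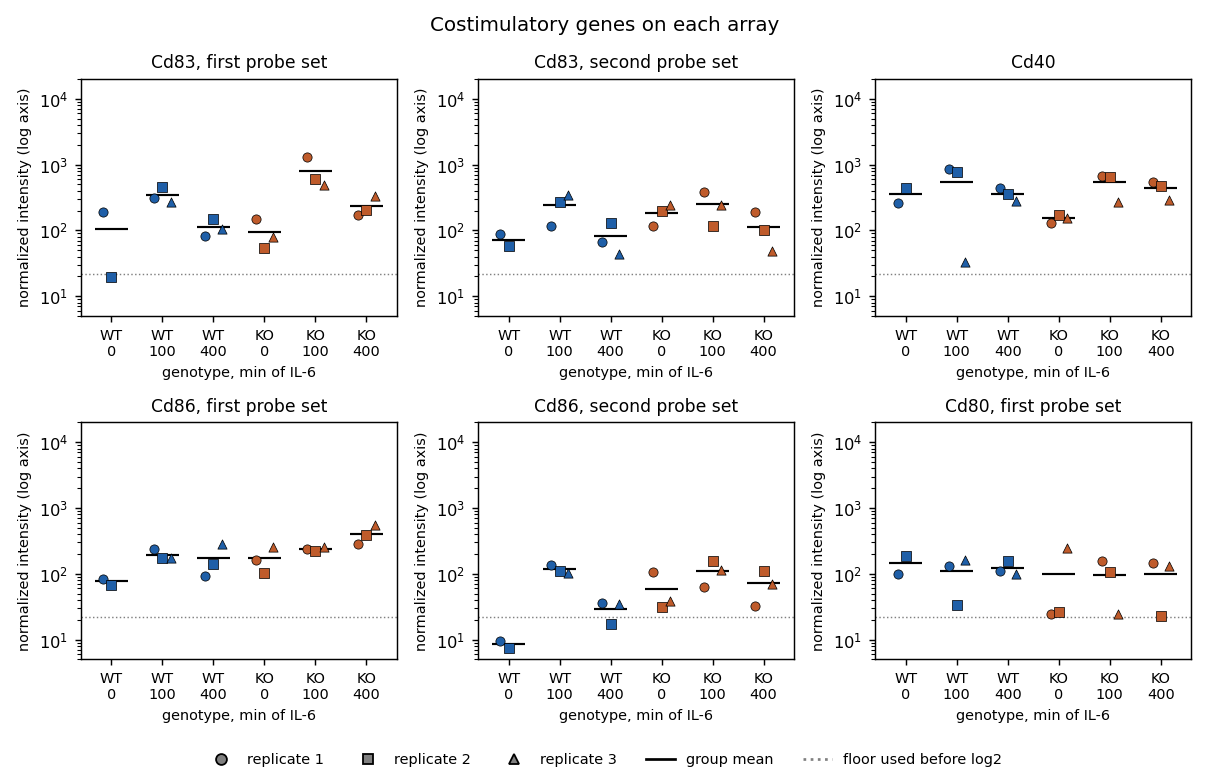
Normalized intensity (log axis) of both Cd83 and both Cd86 probe sets, Cd40 and the first Cd80 probe set on each of the 17 arrays, by genotype and min of IL-6; symbols, bars and dotted line as in the plot of class II genes. Cd83 on the first probe set is highest in KO cells at 100 min (489 to 1303), and the WT array at 100 min with a Cd40 level of 33.4 stands far below its group.

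Cd86, a CD28 ligand, read 84.7 and 68.2 on its first probe set in unstimulated WT cells, 236, 176 and 173 at 100 min, and 93.0, 143 and 285 at 400 min. In KO cells Cd86 read 163, 101 and 253 unstimulated, 240.1, 221 and 254 at 100 min, and 281, 393 and 548 at 400 min. All stimulated arrays of WT cells were above both unstimulated ones, and the KO arrays at 400 min were above all KO arrays at 0 and 100 min. The unstimulated KO arrays were also above both unstimulated WT arrays.

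The Cd86 difference at 400 min in KO cells was 1.29 (SE 0.41, 95% interval 0.41 to 2.16, adjusted p = 0.172), and KO against WT at 400 min it was 1.33 (SE 0.41, adjusted p = 0.27). The highest level in KO cells was on the array labelled KO 400 min replicate 3, and without it these Cd86 differences were 1.04 (adjusted p = 0.371) and 1.09 (adjusted p = 0.464). With replicates 1 and 2 alone they were 1.37 (SE 0.34, adjusted p = 0.0866) and 1.53 (SE 0.34, adjusted p = 0.0972). Within replicate 3, KO was above WT at 400 min by 0.94, against 1.59 and 1.46 in replicates 1 and 2, each between single arrays. In WT cells Cd86 was at 1.34 at 100 min (SE 0.46, adjusted p = 0.678) and 1.04 at 400 min (SE 0.46, adjusted p = 0.771), and unstimulated KO cells were at 1.08 (SE 0.46, adjusted p = 0.834) over WT.

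The second Cd86 probe set was dim. It read 9.51 and 7.56 in unstimulated WT cells, both under the floor, then 137, 111 and 103 at 100 min and 35.6, 17.2 and 34.3 at 400 min. In KO cells it read 107, 31.8 and 39.1 unstimulated, 62.0, 154 and 114 at 100 min, and 32.8, 112 and 69.4 at 400 min. In WT cells the arrays at 100 min lay above those of both other times, with a log2 difference of 2.4 (SE 0.56, adjusted p = 0.369) from 0 min and -1.96 (SE 0.5, adjusted p = 0.484) from 100 to 400 min. The floor makes both of these differences too small, since 1 WT array at 400 min, at 17.2, was also under it. The first Cd86 probe set shared the higher level at 100 min in WT cells but not the return at 400 min, where its difference from 100 min was -0.3 (SE 0.41).

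Cd80, the other CD28 ligand, was dim on both probe sets. On the first it read 99.7 and 187 in unstimulated WT cells, 133, 34.1 and 164 at 100 min, and 112, 159 and 98.5 at 400 min. In KO cells Cd80 read 24.2, 26.4 and 245 unstimulated, 156, 108 and 24.4 at 100 min, and 147, 22.8 and 133 at 400 min. The unstimulated KO arrays of replicates 1 and 2 were near the floor and that of replicate 3 was the highest of all 17. On the second probe set Cd80 ranged from 17.1 to 186. At 400 min it read 127, 115 and 103 in KO cells and 77.1, 69.9 and 82.4 in WT cells, so that all 3 KO arrays were above all 3 WT arrays, by a log2 difference of 0.58 (SE 0.61, adjusted p = 0.852). On both Cd80 probe sets the groups overlapped in the other comparisons. The smallest adjusted p of Cd80 in the comparisons from 0 min was 0.586, and for KO against WT it was this 0.852.

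Groups that did not overlap were counted over the members and over all tested probe sets. In WT cells at 100 min the groups did not overlap for 5 of the 14 member probe sets (background 22.1%), and at 400 min for 4 (background 22%). In KO cells it held for 2 at 100 min (background 11.4%), 3 at 400 min (background 17.7%) and 3 between the times (background 15%), and in WT cells for 3 between the times (background 11.6%). For KO against WT it held for 5 unstimulated (background 23.5%), 1 at 100 min (background 9.19%) and 2 at 400 min (background 14.8%). The median log2 difference of the 14 probe sets in KO cells was 0.46 at 100 min and 0.56 at 400 min, against -0.04 over all tested probe sets at each time. The KO values at 400 min depended on replicate 3. In replicates 1 and 2 alone H2-Aa was at -0.02, H2-Ab1 at -0.18 and Cd74 at 0.01, against 0.7, 0.29 and 0.61 with all arrays. Cd40, both Cd80 probe sets, the first of Cd86 and the second of Cd83 had higher values there than with all arrays, and the other members lower ones. In WT cells it was 0.02 and 0.2, against -0.01 at each time.

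How far the IL-6 response differed by genotype was tested as an interaction, KO response minus WT response. In limma 0 of 14 member probe sets were called at 100 min (background 0%) and 0 at 400 min (background 0%). At an unadjusted p under 0.05 there were 0 members at either time, against 3.66% and 5.38% of all tested probe sets. The smallest adjusted p of a member was 1 at 100 min and 0.938 at 400 min. The intervals were wide: for H2-Aa at 100 min the 95% interval of the interaction ran from -2.25 to 3.07 and for Cd83 on its first probe set from -1.42 to 2.79, so that they include several-fold differences between the genotypes in either direction.

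Other genes of antigen presentation were read from lists. Of 14 tested genes of the class II machinery (H2-DM, H2-DO, cathepsins, the thiol reductase Ifi30 and others), 0 were called in any of the 11 comparisons in limma. At an unadjusted p under 0.05 they numbered at most 2 in a comparison. This was in KO cells at 400 min, against 0 min (background 12.2%) and against 100 min (background 9.03%). H2-DMb1, the partner chain of H2-DMa, read 371 and 352 in unstimulated WT cells and 686, 654 and 1176 at 400 min, a log2 difference of 1.16 (adjusted p = 0.617). Of 13 other T cell costimulatory or coinhibitory ligands and 10 tested genes of CD40 signalling, 0 were called in any comparison, with at most 2 and 3 at an unadjusted p under 0.05. The ligands reached 2 in several comparisons, with backgrounds of 5.99% to 12.2%. The CD40 signalling genes reached 3 in KO cells at 100 min, 2 higher and 1 lower (background 6.17%).

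Among 12 tested transcription factors of class II genes, 1 rose in KO cells at 100 min (background 0.577%) and at 400 min (background 1.82%). The same 1 was higher in KO against WT at 400 min (background 0.365%). It was Irf1, which acts on the interferon-responsive promoter of Ciita. Irf1 read 960.2 and 913 in unstimulated WT cells, 1374, 1357 and 911 at 100 min, and 1108, 1116 and 689 at 400 min. In KO cells Irf1 read 586, 903 and 553 unstimulated, 5767, 5352 and 2228 at 100 min, and 4667, 4244 and 3788 at 400 min. KO against WT at 400 min Irf1 was higher by 2.15 (SE 0.35, adjusted p = 0.0201), with no overlap, while Ciita at that time differed by 0.86 (SE 0.54, adjusted p = 0.711). The rise of Irf1 in KO cells at 100 min, by 2.63 (SE 0.35, adjusted p = 0.00326), stood beside the Ciita difference of -0.52.

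A list of interferon gamma and IL-10 signalling genes also held Il4, Il4ra and Tgfb1. Of its 11 tested genes, 1 rose in WT at 100 min (background 0.0101%) and at 400 min (background 0.0101%). Likewise 1 rose in KO at 100 min (background 0.577%) and at 400 min (background 1.82%). Each time it was Il4ra, which encodes the alpha subunit of the IL-4 receptor and is not a gene of interferon gamma or IL-10 signalling. Its log2 differences were 2.85 (SE 0.39, adjusted p = 0.0456) and 3.58 (SE 0.39, adjusted p = 0.00339) in WT, and 3.37 (SE 0.35, adjusted p = 0.00105) and 4.35 (SE 0.35, adjusted p = 6.59e-05) in KO cells. Socs1, a feedback inhibitor of interferon gamma signalling, read 828, 848 and 852 in KO cells at 400 min and 140.4, 197 and 100.5 in WT cells. This difference, 2.58 (SE 0.46, adjusted p = 0.0336), was the other call of the list.

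Among the marker lists, Fcgr1, the high-affinity IgG receptor of macrophages, rose in KO cells at 400 min by 1.96 (SE 0.37, adjusted p = 0.0168), and Cd34, a progenitor marker, fell by 2.43 on the log2 scale (SE 0.57, adjusted p = 0.0473). No marker of dendritic cells, B cells or T and NK cells was called in any comparison in limma. At an unadjusted p under 0.05 the numbers were at most 2 of 9, 1 of 11 and 1 of 5 in a comparison. The shares of all tested probe sets were 3.66% to 12.2% over the comparisons.

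The genes most like the members over the 17 arrays were read as a description, with the arrays sharing replicate number and normalization. For the mean of the standardised H2-Aa, H2-Ab1, H2-Eb1 and Cd74 the highest Pearson correlations were those of Cd72, a C-type lectin receptor, and Bcas3, both at 0.93, and of the lysosomal protease Ctsb at 0.88. Over the 12 arrays of replicates 1 and 2 these were 0.39 for Cd72, -0.27 for Bcas3 and 0.6 for Ctsb. Bcas3 read 28.7 and 36.2 on the unstimulated and 100-min KO arrays of replicate 3 and 181 on that of WT at 100 min, and 207 to 374 on all other arrays.

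For Cd40, Cd83 and Cd86, and also for Ciita and Cd80 below, the correlations with the genes most alike fell less, or not at all, without replicate 3. These genes were picked over all 17 arrays, so the values over 12 of them are not independent. The IL-6 responses of Cd40 itself did depend on replicate 3, as given above. For Cd40 the genes most alike were Gm4788 (0.87), Mzf1 (0.86) and Irf8 (0.83), at 0.7, 0.8 and 0.9 over replicates 1 and 2. Irf8 is an interferon regulatory factor of myeloid cells. Irf8 read 1614, 1980.2 and 877 in unstimulated KO cells and 3385, 3439 and 1903 at 100 min, and it was low, at 1029, on the WT array at 100 min where Cd40 was 33.4. For Cd83 on its first probe set they were Caml (0.88), Irgm2 (0.87) and Zfp281 (0.85), at 0.9, 0.87 and 0.83 over replicates 1 and 2. Irgm2, an interferon-inducible GTPase, read 4080.1, 4643 and 3062 in KO cells at 100 min and 711, 516 and 534 unstimulated. For Cd86 they were the copper transporter Slc31a1 (0.88), the inhibitory IgG receptor Fcgr2b (0.87) and Atp11a (0.87), at 0.91, 0.87 and 0.87 over replicates 1 and 2. Fcgr2b read 8061, 7863 and 13819 in KO cells at 400 min and 905, 1575 and 4097 in WT cells, with replicate 3 the highest in each group as for Cd86.

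For the other members the genes most alike were Dynll1 (0.87), H2-DMb1 (0.83) and Timm10b (0.82) for H2-DMa, Mnat1 (0.79), Tinf2 (0.78) and Lsm14b (0.77) for Ciita, and Pf4 (0.75), Fgf18 (0.73) and Adig (0.71) for Cd80. Over replicates 1 and 2 these correlations were 0.57, 0.21 and 0.39 for H2-DMa. They were 0.83, 0.82 and 0.91 for Ciita, and 0.78, 0.73 and 0.74 for Cd80. H2-DMb1, which fell to 0.21, read 1176 and 1015 on the replicate 3 arrays at 400 min, its highest levels.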

How the data were processed

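The deposited table holds 1 linear intensity for each of 12488 probe sets and 17 arrays. For the software, background correction and scaling: not given in the sources used here. From the values, the 2% trimmed mean of each deposited array is 499.9 to 500.1. There are no detection calls, and the number of arrays limits the precision. Array medians differed by 0.4 on the log2 scale, over the limit of 0.3, so values were quantile normalized with limma 3.58.1 (R 4.3.3), set to a floor of 22.01 (the 10th percentile) and log2 transformed. Fold changes of values at the floor are too small. The 66 control probe sets were left out, and the 9871 probe sets above the 40th percentile of their array on at least 2 arrays were tested. The fit had 1 mean per group over 17 arrays, with eBayes (two-sided) and Benjamini-Hochberg adjustment in each of 11 comparisons. Names come from the platform annotation. The fit was tested on simulated data. The alternatives were 11 settings and 17 fits without 1 array each. Genes named were the members, called list genes and, for each member, the 3 genes with the highest correlation. Members and lists were chosen with earlier results of these data known.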

Additional observations from a re-analysis of the deposited data

How the results depend on the processing

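The count of called member probe sets was 0 in all 11 comparisons and stayed at 0 in most alternatives; the exceptions concern Cd83 (first probe set) and Cd40. For KO cells at 100 min the count was 1, Cd83, with the values as deposited (adjusted p = 0.0431), arrays scaled to a common median (adjusted p = 0.0447), log2(value + 16) in place of the floor (adjusted p = 0.0307), the stricter filter (adjusted p = 0.0382, with 10 of the 14 member probe sets left) and an intensity trend (adjusted p = 0.0174). With replicates 1 and 2 only it was 1, Cd40, at 100 min (adjusted p = 0.0129) and 1, Cd40, at 400 min (adjusted p = 0.021). Over the 28 alternatives the adjusted p of Cd83 at 100 min in KO cells ran from 0.00845 to 0.311, and that of Cd40 from 0.0129 to 1. The cause of these changes was not tested.

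With each array left out in turn, the count ranged from 0 to 1 in KO cells at 100 min and from 0 to 1 in WT cells at 100 min, each time through Cd83 and an unstimulated WT array; it was 0 in the other 9 comparisons. With array weights, no filter, only the groups compared or replicate 3 as a term, 0 members were called. Values that were called in neither fit can change sign: of 154 differences, 34 did so with replicates 1 and 2 only and 19 with array weights, and 0 to 13 in each other alternative.

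Whether replicate numbers pair the arrays was checked by the correlation of deviations from the group means. The median was 0.04 for number 1 and 0.042 for number 2, with 1 and 0 of 15 pairs over 0.1. It was 0.1365 for number 3, with 9 of 10 pairs over 0.1, and -0.041 for arrays of different numbers. Arrays of number 3 thus deviated together, while those of numbers 1 and 2 met the limit of 0.1 in 1 pair, so the numbers as a whole were not taken to pair the arrays. With the replicate number as a block, 0 member probe sets were called in each of the 11 comparisons.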
